A study of Ovis aries with 16 samples.

Results

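Small RNA libraries from liver and from muscle of the same 4 control ewes were compared, ewe by ewe. They are 8 of the 16 libraries of the series, chosen by their labels: tissue, the treatment label control, and the ewe numbers 98, 131, 132 and 201. All animals were female sheep (Ovis aries), and none of the 8 libraries carries a treatment. The other 8 libraries came from liver and muscle of ewes 48, 185, 233 and 255, labelled prenatal T (testosterone before birth), and were used to see whether a difference between the tissues recurred in other animals, to fit library series (explained below) and to test whether the difference depended on treatment. The labels do not say which muscle was taken, nor the age or breed of the ewes. Library, in what follows, means the small RNA reads of 1 tissue piece from 1 ewe. In bulk tissue, a difference in the cell types present and a difference in the RNA of each cell cannot be told apart.

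Reads were tabulated for 4 classes of RNA. A microRNA (miRNA) is a short RNA, cut from a hairpin, that pairs with messenger RNAs through its seed and lowers their output. Small nucleolar RNAs (snoRNAs), most of them cut from introns of host genes, guide chemical changes on ribosomal RNA. Small nuclear RNAs (snRNAs) are parts of the splicing machinery, and long non-coding RNAs (lncRNAs) are a mixed class, of which a small RNA library shows only fragments or short RNAs that lie inside them. The miR-1 and miR-133 families are known markers of striated muscle, miR-122, miR-192, miR-194 and miR-148a are abundant in liver, and the miR-200 family marks epithelial cells such as those of the bile ducts.

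Each deposited value was a read number divided by a factor set within a tissue, so whole reads were first recovered and then rescaled jointly over the 8 libraries. The control libraries held 338248 to 499711 reads over the 4 classes in liver and 817350 to 936046 in muscle. Values below are scaled reads, that is, reads divided by a library factor computed within the class, and are listed in the order of ewes 98, 131, 132 and 201. A log2 fold change is liver minus muscle over 4 ewes, on the scale log2(scaled reads + 1). Its standard error (SE) is the one from limma, which draws the variance of each feature toward the trend of its class. Adjusted p is from limma with the ewe as a block, Benjamini-Hochberg adjusted over all tested features of the class. A feature was tested where its mean was at least 5 scaled reads, and "higher" or "lower" below means an adjusted p under 0.05.

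The library numbers in the labels fall into 2 separate runs, here called series 1 (the lower numbers) and series 2 (the higher). All 4 control muscles and the liver of ewe 98 belong to series 1, and the livers of ewes 131, 132 and 201 to series 2, so ewe 98 alone has both tissues in the same series. Among the prenatal T ewes, the liver of ewe 48 is in series 1 and the muscle of ewe 255 in series 2, and the other 6 libraries follow the same split as the controls. The labels do not say what the runs stand for. The liver of ewe 98 also stood apart from the other control livers: the chi-square per degree of freedom between its reads of the 4 classes and theirs ran from 73.1 to 81.6, against 22 to 25.5 between the other livers and 18.3 to 44.7 between muscles. A fit over all 16 libraries that has library series as a term, added after the data were seen, is therefore given. It stands beside the counts of calls and beside many of the named features, among them those described whose call it ended. With the ewe as a block, the tissue effect of this fit comes only from ewes 98, 48 and 255, which have both tissues in the same series. Ewes 48 and 255 are prenatal T ewes. In the other ewes tissue and series cannot be told apart. Fitted within the control libraries alone, the same term leaves the tissue effect to ewe 98.

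The tissues differed in the shares of the 4 classes among the tabulated reads. These shares may count some reads in more than 1 class. The lncRNA LOC114118399 had 41953 reads in liver and 41785 in muscle, and MIR125B had 41952 and 41785. The lncRNA LOC105604459, which held most lncRNA reads of muscle, had 1655 reads in liver and 1005550 in muscle. MIR133 had 1122 and 940145. How many reads were counted in more than 1 class was not tested. In liver, miRNAs took 79.8, 81.1, 83.3 and 81.8% of the reads of the 4 classes, and in muscle 49.5, 51.2, 51 and 48.4%. lncRNAs showed the reverse, with 16.8, 16, 14.3 and 15.7% in liver and 50, 48.4, 48.5 and 51.3% in muscle. snoRNAs took 2.59% ± 0.312 of the reads in liver and 0.342% ± 0.0537 in muscle (mean ± SD, n = 4). For each of these 3 classes the liver and muscle values did not overlap, and the difference had the same sign in every ewe. snRNAs took 0.517, 0.113, 0.131 and 0.129% in liver against 0.193, 0.0926, 0.17 and 0.0558% in muscle, and these ranges overlapped. A two-sided exact permutation test that swaps tissues within ewes gave p = 0.125 for miRNAs, snoRNAs and lncRNAs, the smallest value that 4 ewes allow, and p = 0.375 for snRNAs.

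The muscle shares rested on 2 lncRNA loci. LOC105604459 and LOC105603743 together held most lncRNA reads of muscle, with a mean of 56.7% and 32.7% of the class, against 0.665% and 0.197% in liver. With both left out, miRNAs took 81.6% ± 1.37 of the remaining reads in liver and 89.8% ± 1.57 in muscle, so that the order of the tissues reversed, and lncRNAs took 15.6% ± 0.953 and 9.37% ± 1.58 (mean ± SD, n = 4). snoRNAs kept their order, at 2.59% ± 0.315 in liver and 0.613% ± 0.093 in muscle.

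Of 76 miRNAs tested, 32 were higher in liver (42.1%) and 26 higher in muscle (34.2%). The largest differences were those of MIR133 and MIR10B in muscle, and of MIR200B, MIR200A, MIR194, MIR369 and MIR148A in liver. The split between the tissues depends on the scale, and MIR133 alone took 52.5% of muscle miRNA reads and 0.0924% of liver miRNA reads. The median log2 fold change of all tested miRNAs was 0.13 with the factors used here, 1.62 when reads were scaled to the class total and 2.33 when scaled to the total of the 4 classes. With those totals the split became 56 higher in liver and 4 higher in muscle, and 72 and 4; with the deposited values it was 55 and 4. All 32 miRNAs higher in liver stayed higher under the 5 scalings tried, while of the 26 higher in muscle only MIR133, MIR10B, MIR362 and MIR150 did. Every other muscle call below therefore means higher relative to the typical miRNA, and its sign turned under at least 1 of the totals.

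**Figure D1:**
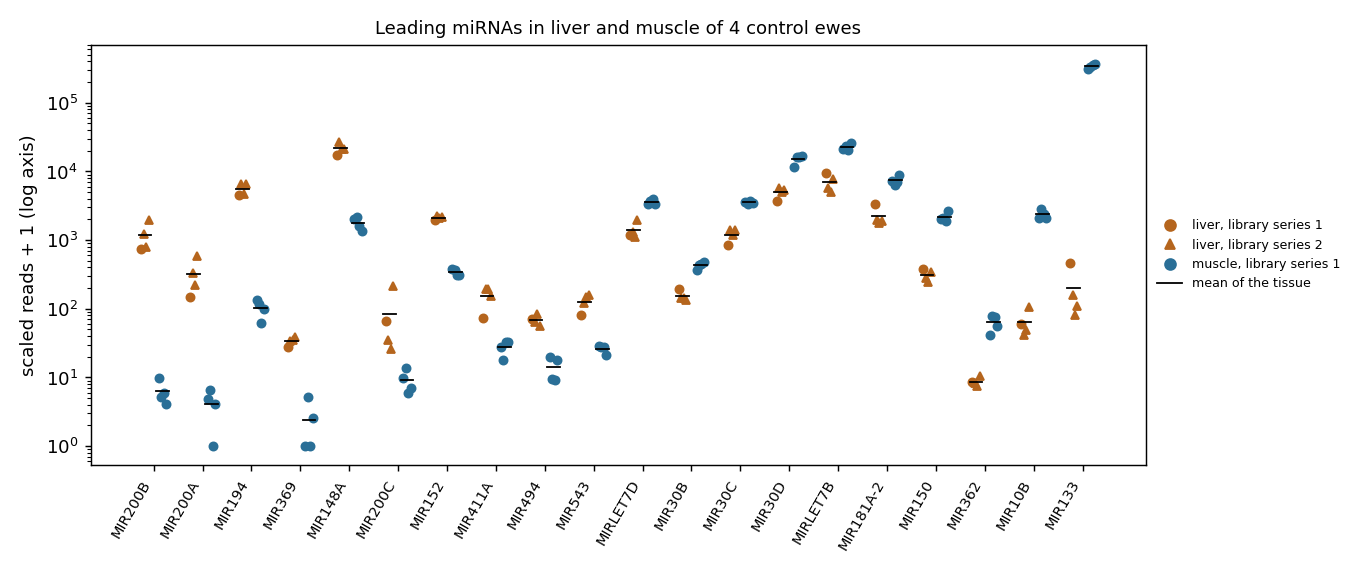
Scaled reads + 1 (log axis) of the 10 miRNAs with the largest difference in each direction, for 4 livers (brown) and 4 muscles (blue) of control ewes; circles are library series 1, triangles series 2, and black bars are the tissue means. Livers lie above muscles for the 10 miRNAs on the left, and muscles above livers for the 10 on the right without overlap; MIRLET7D, MIR30B, MIR30C, MIR30D, MIRLET7B and MIR181A-2 change sign when reads are scaled to the total of the 4 classes.

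The 2 liver markers measured identified the liver libraries. MIR194, which lies inside EHD1, had 4533, 6476, 4643 and 6566 scaled reads in liver and 99.7, 132, 114.6 and 61.2 in muscle, a log2 fold change of 5.79 ± 0.24 (adjusted p = 2e-08). MIR148A, known for its abundance in hepatocytes and for lowering the LDL receptor, had 17176, 26928, 21253 and 21150 in liver and 1379, 2011, 2196 and 1615 in muscle (3.59 ± 0.17, adjusted p = 3.1e-08), and was one of the 5 most abundant liver miRNAs with 9.27% of miRNA reads. The groups did not overlap for either. MIR122, MIR192, MIR885 and MIR101, the remaining liver markers looked for, were not analysed here.

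MIR152, inside COPZ2 and of the same family as MIR148A, was also higher in liver, at 1970, 2271, 2081 and 2189 against 309.9, 379, 370.4 and 311 (2.64 ± 0.17, adjusted p = 5e-07). Both measured members of that family thus stood above the typical miRNA in liver, and did so under every scaling. In the fit with library series the log2 fold changes were 5.95 for MIR194, 4.08 for MIR148A and 3.04 for MIR152, each larger than without it.

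All 3 epithelial miRNAs measured were higher in liver. MIR200B had 738, 1235, 780.5 and 1951 scaled reads in liver and 3.07, 8.95, 4.19 and 4.96 in muscle (7.51 ± 0.27, adjusted p = 5.8e-09). MIR200A, its neighbour between TTLL10 and C12H1orf159, had 147, 334, 224 and 594 in liver and 3.07, 3.84, 5.59 and 0 in muscle (6.40 ± 0.60, adjusted p = 1.1e-05). MIR200C had 64.5, 34.3, 25.2 and 213 in liver and 6.14, 8.95, 12.6 and 4.96 in muscle (2.79 ± 0.59, adjusted p = 0.0019). The muscle values of the 3 genes were at most 12.6 scaled reads, and the liver of ewe 201 was the highest liver for each. The 3 summed to 0.452 to 1.07% of liver miRNA reads and to 0.00152 to 0.00356% of muscle miRNA reads. All belong to families that hold epithelial cells in their state by targeting ZEB1 and ZEB2, and in liver they are known from bile duct cells.

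A further group higher in liver came from the imprinted DLK1-DIO3 region, whose miRNAs are transcribed from the maternal copy and are abundant in fetal tissue. Of 49 listed miRNAs of this region with a row in the table, 24 passed the filter on low values: 16 were higher in liver (66.7%, against 42.1% of all tested miRNAs), none in muscle and 8 did not pass the test. Their median log2 fold change was 1.30, beside 0.13 for all tested miRNAs. MIR369 had 27, 33.5, 34.1 and 38.3 scaled reads in liver and 1.53, 0, 4.19 and 0 in muscle (4.16 ± 0.54, adjusted p = 8.5e-05). MIR411A had 72, 190.5, 193 and 154 and 32.2, 26.9, 16.8 and 31.4 (2.41 ± 0.35, adjusted p = 0.00016), and MIR543 79.5, 120.4, 149 and 158 and 19.9, 28.1, 26.6 and 26.5 (2.24 ± 0.23, adjusted p = 2.1e-05). In all 3 the livers lay above the muscles without overlap.

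The region was not uniform. MIR379 (1.72 ± 0.20), MIR409 (1.86 ± 0.26), MIR494 (2.36 ± 0.32) and MIR487B (1.89 ± 0.34) were each higher in liver. MIR127 and MIR433, which lie inside RTL1, did not pass the test, at 0.22 ± 0.24 (adjusted p = 0.41) and -0.23 ± 0.48 (adjusted p = 0.66), nor did MIR432 (-0.57 ± 0.27, adjusted p = 0.081). MIR127 had 4225, 1851, 1903 and 1607 scaled reads in liver and 1994, 1718, 1814 and 2080 in muscle, so that the liver of ewe 98 alone stood above all muscles. In the fit with library series 10 of the 16 liver calls remained, and in the prenatal T ewes 11 did. MIR136 went from 1.88 to -0.54 when library series was fitted within the 8 control libraries, which leaves the tissue effect to ewe 98 alone. Over all 16 libraries MIR136 had 1.61 (adjusted p = 0.082).

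LOC105606646, the gene of that region in which most of these miRNAs lie, was counted among the lncRNAs and moved the same way. It had 210.2, 233, 277 and 203 scaled reads in liver and 79.4, 89, 86.2 and 109.8 in muscle (1.33 ± 0.27, adjusted p = 0.0058), and 1.43 with library series as a term (adjusted p = 0.002). Reads of the miRNAs and of snoRNA genes inside it could not be told apart from its own.

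Among other miRNAs higher in liver, MIR30A had 5486, 6134, 4754 and 5670 scaled reads in liver and 1546, 1380, 1634 and 1496 in muscle (1.86 ± 0.18, adjusted p = 1.1e-05). MIR21, an miRNA of stromal and stressed cells, had 3909, 2753, 5785 and 5482 and 1178, 2247, 795 and 798 (1.92 ± 0.37, adjusted p = 0.0012). MIR107, which lies in an intron of PANK1, was higher by a smaller amount (0.60 ± 0.19, adjusted p = 0.018), while its relative MIR103, inside PANK3, did not pass (0.13 ± 0.20, adjusted p = 0.55). MIR30A and MIR21 did not overlap between the tissues. MIR199A, which with MIR21 and MIR143 made up the measured stromal and smooth muscle markers, was higher in liver by 0.51 ± 0.16 (adjusted p = 0.018), and MIR143 did not pass (-0.06 ± 0.16, adjusted p = 0.75).

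**Figure D2:**
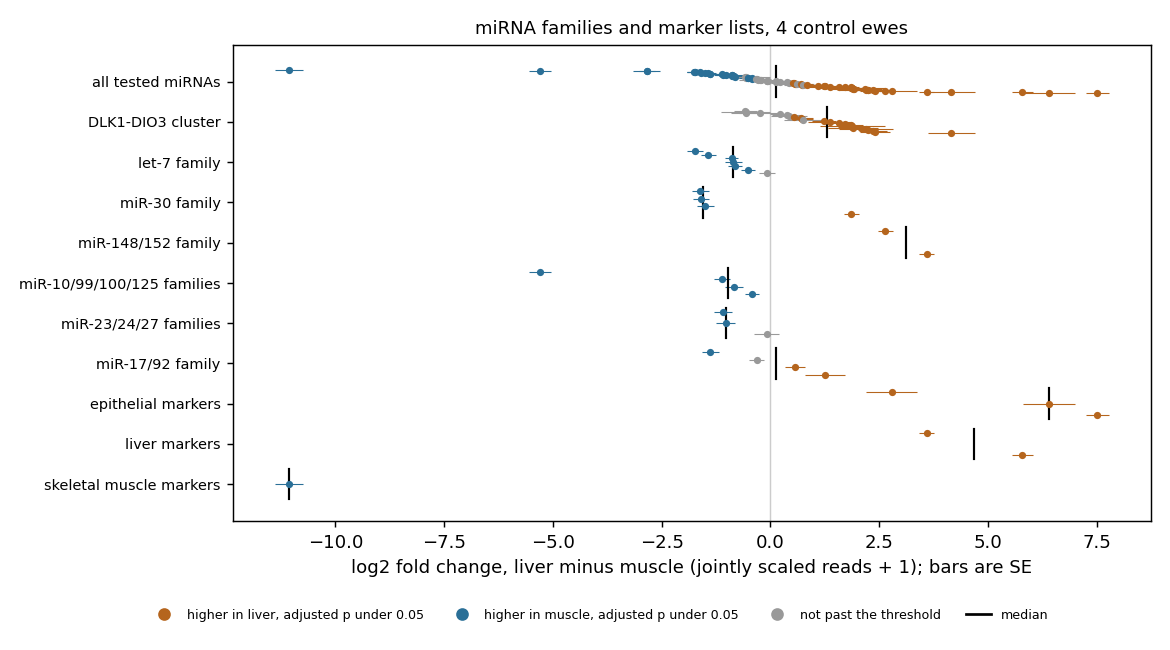
Log2 fold change, liver minus muscle, of single miRNAs in 4 ewes (points, bars are SE from limma) in all tested miRNAs and in 10 lists; brown is higher in liver, blue higher in muscle, grey not past the threshold, and black lines are medians. The 24 DLK1-DIO3 miRNAs have a median of 1.30 and the 7 let-7 miRNAs one of -0.85; of the muscle calls, MIR133, MIR10B, MIR150 and MIR362 keep their sign when reads are scaled to the total of the 4 classes and the others turn.

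MIR133, whose targets include regulators of muscle growth, set muscle apart more than any other tested miRNA. It had 370427, 311065, 333775 and 358462 scaled reads in muscle and 460.3, 156, 80.5 and 109.9 in liver, a log2 fold change of -11.06 ± 0.33 (adjusted p = 2.2e-09). The liver of ewe 98 had the highest liver value, and even there MIR133 was 0.227% of miRNA reads against 50 to 54.8% in muscle. It was the 1 skeletal muscle marker of 9 looked for that had a row, and MIR1, MIR206, MIR208A, MIR208B, MIR486 and MIR499 were not analysed here. MIR10B, inside HOXD4 in a HOX cluster and listed here as an endothelial marker, had 2118, 2129, 2864 and 2403 in muscle and 59.2, 39.9, 48.2 and 106.8 in liver (-5.30 ± 0.25, adjusted p = 3.1e-08). The term for library series gave -10.64 and -4.37.

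MIR150, an miRNA of mature lymphocytes, had 2635, 2053, 2105 and 1919 scaled reads in muscle and 373, 277, 243 and 339 in liver (-2.83 ± 0.18, adjusted p = 5e-07). MIR362, inside CLCN5, had 55.2, 40.9, 76.9 and 76.1 and 7.5, 7.17, 6.46 and 9.42 (-2.84 ± 0.31, adjusted p = 2.5e-05). Neither overlapped between the tissues, and both stayed higher in muscle under all 5 scalings. MIR150 was the 1 immune marker of 5 that had a row, at 0.293 to 0.386% of muscle miRNA reads and 0.106 to 0.184% of liver miRNA reads, so whether blood cells took part in its difference was not tested. MIR16B, listed as an erythroid marker, was higher in muscle (-0.51 ± 0.21, adjusted p = 0.045) but higher in liver on the class total scale (0.99).

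The let-7 family, whose members share a seed and rise as tissues mature, was mostly called in muscle. All 7 measured members had a negative log2 fold change and 6 were higher in muscle (85.7%, against 34.2% of all tested miRNAs), with a median of -0.85, but on the class total scale the median was 0.65. MIRLET7B had 26195, 21335, 23803 and 20215 scaled reads in muscle and 9551, 5694, 5083 and 7880 in liver (-1.74 ± 0.19, adjusted p = 2.3e-05). MIRLET7D had 3409, 3384, 3715 and 4037 and 1181, 1295, 1123 and 1945 (-1.42 ± 0.18, adjusted p = 7e-05). MIRLET7F, inside HUWE1, was the member that did not pass, at 13957, 14854, 14084 and 13899 and 8818, 16493, 14445 and 16005 (-0.07 ± 0.18, adjusted p = 0.74). As a share of miRNA reads the family was the larger in liver, with 27 to 30.6% against 17.1 to 19.6% in muscle. All 6 calls remained with library series as a term, and in the prenatal T ewes.

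The miR-30 family did not move as a block. MIR30B, MIR30C and MIR30D were higher in muscle (-1.49, -1.60 and -1.61), while MIR30A, above, was higher in liver. MIR30C, inside NFYC, had 3518, 3600, 3413 and 3764 scaled reads in muscle and 862, 1396, 1168 and 1382 in liver (adjusted p = 3.7e-05). MIR30D had 16581, 11573, 16158 and 16071 and 3773, 5749, 4974 and 5290 (adjusted p = 6.2e-05). MIR30B, next to MIR30D between KHDRBS3 and ZFAT, had 485, 363, 439 and 445 and 196, 144, 142 and 135 (adjusted p = 6.7e-05). The distance of more than 3 log2 units between MIR30A and these 3 does not depend on the scale, since any factor of a library is shared by them, whereas on the total of the 4 classes all 4 lay above 0 (4.06, 0.70, 0.60 and 0.59).

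In other families, several members were higher in muscle relative to the typical miRNA, while some were not called or were higher in liver. MIR181A-2 and MIR181A-1, copies whose reads agreed within 10% in every library, had 8864, 7167, 6449 and 7118 scaled reads in muscle and 3342, 1963, 1772 and 1929 in liver for the first (-1.75 ± 0.17, adjusted p = 1.3e-05). MIR125B (-1.11 ± 0.18), MIR99A (-0.42 ± 0.16) and MIR10A (-0.83 ± 0.21) were higher in muscle together with MIR10B, which makes 4 of 4 measured members of their list (34.2% of all tested miRNAs were called in muscle). The term for library series ended the calls of MIR99A (-0.16, adjusted p = 0.39) and MIR10A (-0.51, adjusted p = 0.079). MIR23A (-1.02 ± 0.22) and MIR23B (-1.09 ± 0.20) were higher in muscle, and MIR27A (-0.08 ± 0.28, adjusted p = 0.78), which shares a cluster with MIR23A, was not called. That term lowered MIR23B to -0.53 (adjusted p = 0.017) and ended the call of MIR23A (-0.18, adjusted p = 0.43). In the miR-17/92 list MIR106B was higher in muscle (-1.39 ± 0.20) and MIR17 and MIR106A higher in liver (0.57 ± 0.22 and 1.25 ± 0.46). MIR29B (-0.87 ± 0.31), known for lowering collagens, and MIR26A (-0.42 ± 0.17) were called in muscle by smaller amounts, and neither passed with the term (adjusted p = 0.078 and 0.056). On the class total scale MIR125B, MIR99A, MIR10A, MIR23A, MIR23B, MIR29B, MIR26A and MIR106B were all above 0, from 0.11 to 1.08.

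**Figure D3:**
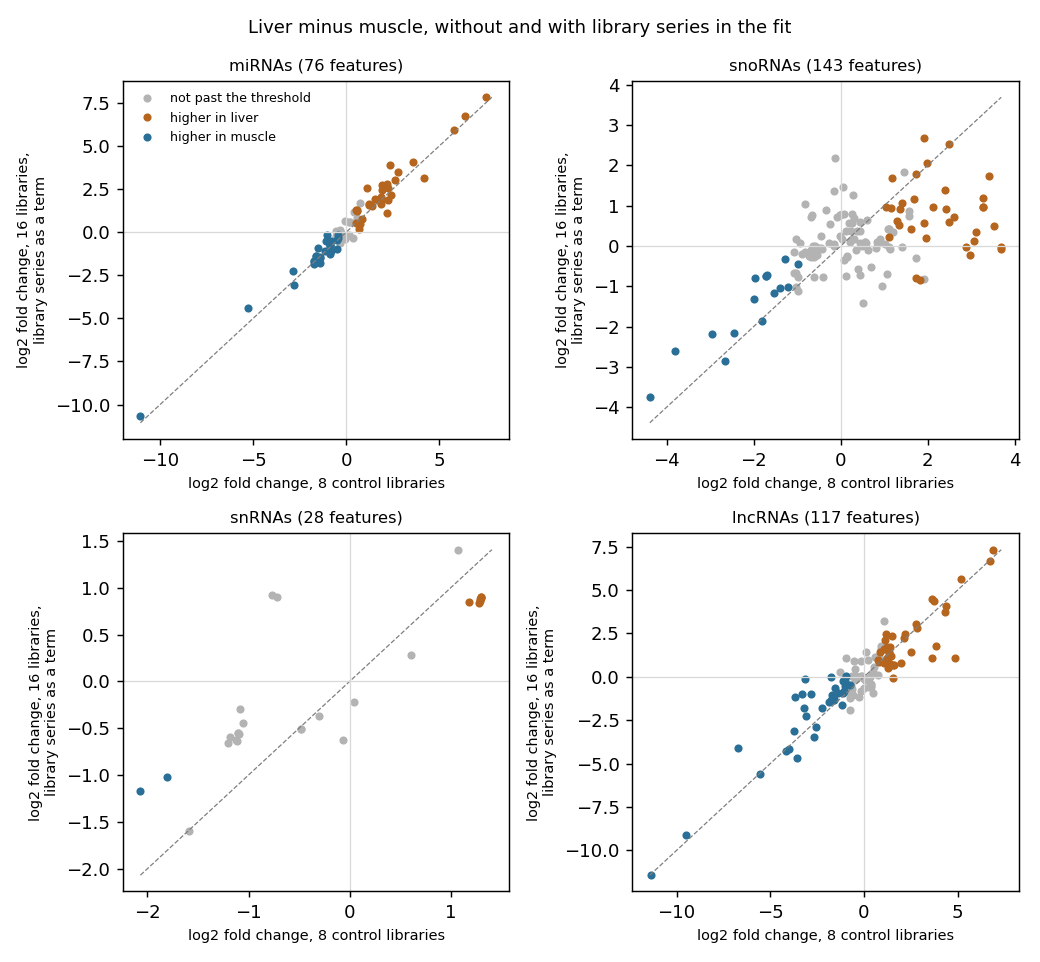
Log2 fold change, liver minus muscle, in the 8 control libraries (horizontal) against the fit over 16 libraries with library series as a term (vertical), for 76 miRNAs, 143 snoRNAs, 28 snRNAs and the lncRNAs tested in both; colours give the control call and the dashed line is equality. miRNAs lie near the line, while many snoRNAs higher in liver fall toward 0, among them LOC114110194 from 3.69 to -0.02.

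Nearly all miRNA differences kept their sign when library series was fitted. All 58 called miRNAs kept their sign in the 16-library fit with that term, and 46 of them passed its threshold. The tissue effect of that fit comes from ewes 98, 48 and 255. Fitted within the 8 control libraries, the term leaves the tissue effect to ewe 98 alone, and 57 of 58 signs were kept there. Without the liver of ewe 98, and with the ewes not paired, 33 were higher in liver and 29 higher in muscle. The paired fit without both libraries of ewe 98 gave 26 and 22.

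Of 160 snoRNAs tested, 35 were higher in liver (21.9%) and 17 higher in muscle (10.6%). In the liver group, many values differed between library series as well as between tissues. LOC114110194, between WDR74 and SLC3A2, had 16.9, 234, 252 and 267 scaled reads in liver and 15, 5.33, 5.81 and 13.8 in muscle (3.69 ± 0.73, adjusted p = 0.0045). LOC114110519, inside C23H18orf32, had 2.98, 127, 113.7 and 159.6 and 2.5, 1.33, 11.6 and 2.29 (3.69 ± 0.80, adjusted p = 0.006). In both, the 3 series 2 livers were high, and the liver of ewe 98 lay among or next to the muscles of its own series.

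The libraries of the prenatal T ewes separate the labels further. Scaled over all 16 libraries, LOC114110194 had 185 to 244 in the 6 series 2 livers, 15.9 and 5.83 in the series 1 livers of ewes 98 and 48, 4.78 to 14.8 in the 7 series 1 muscles and 176 in the series 2 muscle of ewe 255. LOC114110519 had 95.7 to 146, 2.81 and 2.59, 0 to 10.8 and 162 in the same order. With library series as a term their log2 fold changes were -0.02 (adjusted p = 0.99) and -0.08 (adjusted p = 0.99). Both calls thus ended.

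This pattern was common among the snoRNAs called in liver. In 24 of the 35, both series 1 livers lay below all 6 series 2 livers while the series 2 muscle lay above all 7 series 1 muscles, against 37 of all 160 tested snoRNAs and 2 of the 32 miRNAs higher in liver. The liver of ewe 98 was the lowest control liver in 34 of the 35, and overlapped the muscles in 15. The median of their mean levels was 74.4 scaled reads in series 2 livers, 17.5 in series 1 livers, 49.3 in the series 2 muscle and 9.27 in series 1 muscles. LOC114117650, inside NOP56, a core protein of snoRNA particles, was one of these, at 23.3, 178, 169 and 212 against 6.24, 12, 11.6 and 13.8, with 134 in the muscle of ewe 255 on the 16-library scale. LOC114111381, inside the translation factor gene EIF4A2, had 10.9, 121, 137 and 108 against 3.74, 10.7, 7.27 and 4.59, with 5.83 in the liver of ewe 48.

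**Figure D4:**
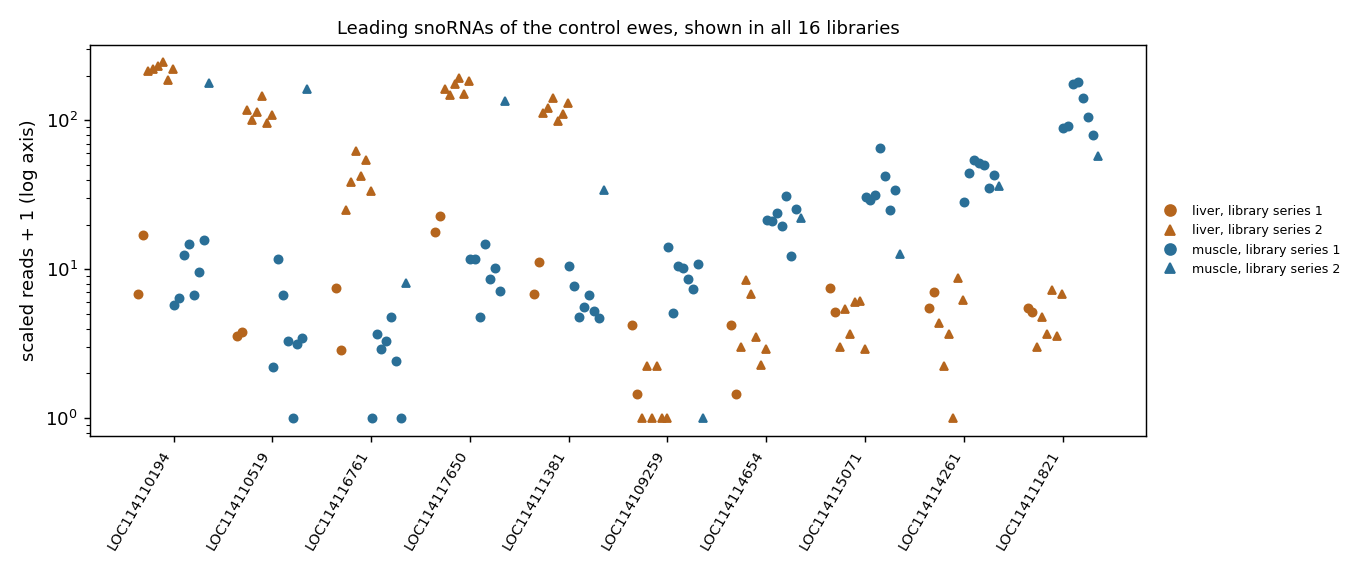
Scaled reads + 1 (log axis) of the 5 snoRNAs with the largest difference in each direction, in 8 livers (brown) and 8 muscles (blue) of control and prenatal T ewes; circles are library series 1 and triangles series 2. For 4 of the 5 on the left the series 1 livers lie with or near the series 1 muscles and the single series 2 muscle is raised toward the series 2 livers, whereas for the right-hand 5 livers and muscles are apart in series 1.

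Some snoRNAs higher in liver kept their call with library series as a term. LOC114117421, one of the 5 most abundant liver snoRNAs, had 109.8, 362, 377 and 336 scaled reads in liver and 57.4, 69.3, 74.1 and 66.5 in muscle (1.99 ± 0.31, adjusted p = 0.0016). On the 16-library scale it had 259 in the series 1 liver of ewe 48 and 54 in the series 2 muscle of ewe 255, and library series as a term gave 2.06 (adjusted p = 1e-07). LOC114116761, inside RPL21, had 1.99, 26.5, 42.9 and 45.6 in liver and 0, 0, 2.91 and 2.29 in muscle, so that the liver of ewe 98 lay among the muscles. Its 166 liver reads and 3 muscle reads gave a scaled ratio of 23.8 (95% exact interval 8.01 to 116.7, counting error only), and the fit with library series gave 1.73 (adjusted p = 0.01). Of the 34 liver calls tested in that fit, 28 kept their sign and 14 passed.

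The snoRNAs higher in muscle kept their sign in the fit with library series. LOC114111821, inside DKC1, which encodes the pseudouridine synthase dyskerin, had 79.8, 98.6, 97.4 and 179 scaled reads in muscle and 4.47, 2.21, 4.29 and 6.91 in liver (-4.39 ± 0.37, adjusted p = 4.3e-05). LOC114114261, inside RNF149, had 42.4, 30.6, 46.5 and 50.4 and 6.46, 3.68, 1.43 and 0 (-3.82 ± 0.55, adjusted p = 0.0011). LOC114115071, inside MATR3, had 33.7, 33.3, 30.5 and 64.2 and 4.47, 2.21, 5.01 and 5.53 (-2.95 ± 0.39, adjusted p = 0.0007). Livers and muscles did not overlap in any of the 3, and the liver of ewe 98 lay with the other livers.

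The term for library series left these 3 with log2 fold changes of -3.75, -2.60 and -2.19, with adjusted p of 7.3e-11, 6.9e-05 and 0.00016. LOC114114654, between TOMM7 and HYCC1, had 24.9, 22.6, 21.8 and 18.3 in muscle and 0.497, 2.21, 8.58 and 2.76 in liver, and -2.86 with the term (adjusted p = 7.6e-05). All 16 muscle calls tested in that fit kept their sign and 6 passed. LOC114111821 and LOC114114261 were the 2 of the 17 that stayed called under all 5 scalings.

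The count of snoRNA calls moved with library and scale. Without the liver of ewe 98, and with the ewes not paired, it rose to 49 higher in liver and 29 higher in muscle. The paired fit without both libraries of ewe 98 gave 50 and 28. With library series fitted in the 8 control libraries the tissue effect is that of ewe 98 alone, and 49 of 52 calls kept their sign there. Scaled to the class total the count was 25 and 33, to the total of the 4 classes 137 and 2, and in the deposited values 89 and 6. Of 35 tested snoRNAs inside genes of ribosomal proteins or translation factors, 8 were higher in liver (22.9%) and 2 in muscle (5.71%), near the shares of the class. The 3 tested snoRNAs between SNRPN and UBE3A, an imprinted region, did not pass the test, with log2 fold changes between 0.56 and 0.57.

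snRNAs gave few reads, 426 to 1750 per library. Of 30 tested, 7 were higher in liver (23.3%) and 2 higher in muscle (6.67%). Of the 7, 6 were copies whose reads agreed within 10% and count as about 1 result, and LOC114117120 was the other (1.18 ± 0.36, adjusted p = 0.0057). Of the copies, LOC114117112 had 70.3, 47.5, 83.4 and 77 scaled reads in liver and 23.5, 31.5, 29.4 and 24.6 in muscle (1.30 ± 0.36, adjusted p = 0.0029). Livers and muscles did not overlap. Its call ended with library series as a term over 16 libraries (0.90, adjusted p = 0.26), as did all 9 snRNA calls (1 of 28 at an unadjusted p under 0.05). LOC114109164, one of the 2 called in muscle, had 69, 4.5, 11.2 and 7.22 against 2.86, 3.8, 0 and 5.7, so that the muscle of ewe 98 stood far above the other 3. Without ewe 98, and without ewe 201, limma called 0 snRNAs, with 7 and 11 at an unadjusted p under 0.05.

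Of 127 lncRNAs tested, 39 were higher in liver (30.7%) and 37 higher in muscle (29.1%). LOC105603743 and LOC105604459 stood above all others in muscle. LOC105604459, inside MIB1, had 251610, 246959, 241186 and 315988 scaled reads in muscle and 572, 407, 263 and 277 in liver (-9.50 ± 0.28, adjusted p = 5.6e-07). LOC105603743, which has no entry in the annotation used for neighbours, had 143711, 139551, 128067 and 203581 and 223, 179, 16.1 and 14.8 (-11.36 ± 0.75, adjusted p = 2.3e-05). The liver values of LOC105603743 fell into ewes 98 and 131 on one side and ewes 132 and 201 on the other. In other mammals a gene of miR-1 and a gene of miR-133a lie together in an intron of MIB1. MIR1 was not analysed here. LOC105604459 had 1655 liver and 1005550 muscle reads, beside 1122 and 940145 of MIR133. The values do not show which bases of the locus the reads cover, so their source was not tested. Whether LOC105604459 and MIR133 share reads was not tested either, so they may not be separate results.

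**Figure D5:**
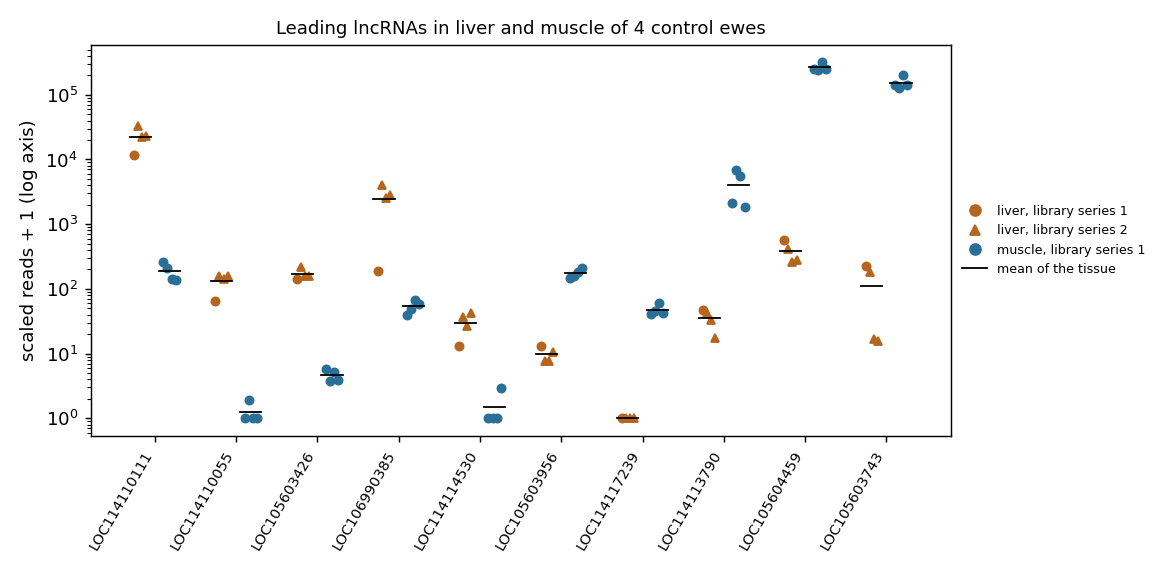
Scaled reads + 1 (log axis) of the 5 lncRNAs with the largest difference in each direction in 4 livers (brown) and 4 muscles (blue) of control ewes; circles are library series 1, triangles series 2, and black bars are the tissue means. LOC105604459 and LOC105603743 have from 128067 to 315988 scaled reads in the 4 muscles; LOC114117239 is at 0 in all 4 livers; for LOC106990385 the liver of ewe 98 lies far below the other livers.

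LOC114113790, between HES1 and OPA1, had 1819, 2095, 6792 and 5487 scaled reads in muscle and 46.1, 41.7, 32.2 and 16.6 in liver (-6.71 ± 0.54, adjusted p = 7.6e-05). LOC114117239 had 41.7, 39.8, 44.5 and 60.4 in muscle and no read in any liver. Against a floor of 3 reads over the 4 livers its 176 muscle reads were at least 64.7-fold higher. LOC105603956, between CEP295 and DEUP1, had 212, 145, 155 and 181 and 12.1, 6.72, 6.62 and 9.6 (-4.18 ± 0.27, adjusted p = 2.3e-05). The annotation used for neighbours names it SMCO4 and places a tRNA gene inside it. Whether its reads came from that tRNA gene was not tested. These 3 and the 2 above were higher in muscle under all 5 scalings and with library series as a term, where their log2 fold changes ran from -11.43 to -4.09. LOC114112617, among the 5 most abundant muscle lncRNAs, had 6397, 5334, 17959 and 12159 in muscle and 2130, 434, 630.0 and 482 in liver (-3.67 ± 0.53, adjusted p = 0.0014), and -1.18 with the term (adjusted p = 0.13), which ended its call.

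In liver, LOC114110111 was the most abundant lncRNA and had the largest difference. It had 11826, 33442, 22122 and 22733 scaled reads in liver and 135, 262, 207 and 141 in muscle (6.87 ± 0.25, adjusted p = 1.1e-06). LOC114110055, between PLSCR5 and PLSCR4, had 64.3, 157, 141 and 159 in liver and 0, 0, 0.947 and 0 in muscle. Its 533 liver reads and 1 muscle read gave a scaled ratio of 484 (95% exact interval 86.4 to 19134, counting error only). LOC105603426 had 143, 216, 157 and 158 and 2.91, 4.73, 2.84 and 4.12 (5.19 ± 0.28, adjusted p = 1.2e-05). The liver of ewe 98 was the lowest of the 4 for all 3, and still above every muscle. In the fit with library series they had 7.33, 6.65 and 5.66.

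LOC106990385 differed between library series as well as between tissues. It had 188, 4060, 2581 and 2840 scaled reads in liver and 57.2, 38.8, 48.3 and 65.9 in muscle (4.87 ± 0.75, adjusted p = 0.0018). On the 16-library scale the series 1 liver of ewe 48 had 73.6 and the series 2 muscle of ewe 255 had 1735, and the term left 1.07 (adjusted p = 0.01). LOC114114530 had 12.1, 36.3, 25.5 and 41.9 in liver and 1.94, 0, 0 and 0 in muscle. Its 2 muscle reads, both in ewe 98, leave a scaled ratio of 53.5 (95% exact interval 14.5 to 447, counting error only), and 4.09 with the term.

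lncRNA genes that contain a snoRNA gene leaned to liver. The set was listed with earlier results of these data known, so its counts are a description. Reads of the snoRNA genes inside could not be told apart from those of the lncRNA genes themselves. Of 12 tested, 8 were higher in liver (66.7%, against 30.7% of all tested lncRNAs), none in muscle, and 4 did not pass. LOC114118756, between TAS2R1 and SEMA5A, had 18.1, 59.1, 18 and 29.7 scaled reads in liver and 2.91, 5.68, 3.79 and 1.37 in muscle (2.79 ± 0.39, adjusted p = 0.0013). LOC105609544 had 1188, 1062, 528 and 571 and 348, 367, 370.2 and 274 (1.22 ± 0.29, adjusted p = 0.012), while one of the snoRNAs inside it, LOC114117661, had 381, 249, 197 and 214 and 243, 254, 275 and 249.9 and did not pass (-0.02 ± 0.24, adjusted p = 0.95). The 2 values are relative to the typical feature of their own class.

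LOC101116687, between NEU1 and HSPA1L, had 80.9, 479, 344 and 341 in liver and 19.4, 26.5, 18.9 and 8.23 in muscle (3.86 ± 0.51), and the term for library series lowered it to 1.79. LOC114116957 had 758, 1363, 859 and 1064 and 416, 379, 302 and 261 (1.56 ± 0.28, adjusted p = 0.0035). On the 16-library scale it had 308 in the liver of ewe 48 and 1524 in the muscle of ewe 255, and the term left -0.06 (adjusted p = 0.9). Of the 8 liver calls in this set 6 remained with library series as a term, and 7 in the prenatal T ewes.

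Of 5 tested lncRNA genes that contain a miRNA gene, all were called, 3 in liver (60%, against 30.7% of all tested lncRNAs) and 2 in muscle (40%, against 29.1%). With the term for library series 2 of the liver calls and none of the muscle calls remained. LOC105602212, which contains MIR125B, had 2980, 5713, 4716 and 4766 scaled reads in liver and 1724, 2262, 1942 and 2495 in muscle (1.08 ± 0.23, adjusted p = 0.0065). On the scale of its own class MIR125B was higher in muscle (-1.11 ± 0.18). On the total of the 4 classes, a scale shared by both, LOC105602212 had 2.32 and MIR125B 1.08. LOC105611269, which contains MIR181A-2, had 3564, 3618, 3131 and 3006 and 5791, 5536, 4538 and 6167 (-0.72 ± 0.22, adjusted p = 0.027), the direction of its miRNA, and was above 0 on the class total scale (2.17). Its totals, 14159 liver and 21112 muscle reads, were close to the 13009 and 20298 of MIR181A-2. Reads of the 2 could not be told apart, so their shared direction is not a separate result. For LOC105611269 the term for library series gave -0.49 (adjusted p = 0.055). LOC105605445, which contains MIR221, was higher in liver (0.79 ± 0.29, adjusted p = 0.048, and 0.87 with adjusted p = 0.055 under that term), and MIR221 did not pass (-0.21 ± 0.24, adjusted p = 0.45). Host and miRNA were scaled within different classes, so only each one's own test was made. Opposite signs or calls therefore do not show that the 2 differ. The size of this effect can be seen in LOC114118399, an abundant lncRNA. Its 41953 liver and 41785 muscle reads were nearly those of MIR125B (41952 and 41785). Its log2 fold change was nevertheless -0.15 (adjusted p = 0.59), beside -1.11 for MIR125B.

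With library series as a term over 16 libraries, 68 of the 70 lncRNA calls tested there kept their sign and 44 passed, 26 in liver and 18 in muscle. Scaled to the class total, which the 2 abundant muscle loci dominate, 99 lncRNAs were higher in liver and 9 in muscle, and the median log2 fold change moved from -0.05 to 2.49. On the total of the 4 classes the split was 59 and 15, with a median of 1.08. Scaled to the class total without those 2 loci it was 22 and 42. Without the liver of ewe 98, and with the ewes not paired, 46 lncRNAs were higher in liver and 44 in muscle. The paired fit without both libraries of ewe 98 gave 44 and 38.

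The same paired fit in the 4 prenatal T ewes used other animals, with library series divided between the tissues in nearly the same way. Of the control calls tested there, all kept their sign: 57 of 57 miRNAs, 48 of 48 snoRNAs, 7 of 7 snRNAs and 67 of 67 lncRNAs. Those that also passed the threshold were 46 miRNAs, 20 snoRNAs, 0 snRNAs (12 of the 25 tested at an unadjusted p under 0.05) and 53 lncRNAs. MIR133 had a log2 fold change of -11.57 there, beside -11.06 in the controls, MIR200B 7.44 beside 7.51, and LOC114110111 7.60 beside 6.87. For the snoRNA LOC114110194 it was 2.16 (adjusted p = 0.16) beside 3.69.

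The difference between tissues was not detectably different between control and prenatal T ewes. A tissue by treatment term over all 16 libraries, with the ewe as a block, passed the limma threshold for 0 of 76 miRNAs, 0 of 144 snoRNAs, 0 of 28 snRNAs and none of the lncRNAs tested. An unadjusted p under 0.05 was reached by 3, 5, 0 and 7 of them, and without the block no feature passed either. With 4 ewes in each group this does not show that the effects are alike.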

How the data were processed

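Small RNA libraries (total RNA, Trizol, NEBNext small RNA kit, per the labels' protocols) of 16 sheep tissue samples were deposited as 4 tables of normalised values. STAR 2.6.0c, featureCounts 1.6.1 and cutadapt 3.2 appear in the submitters' processing notes, with no order. The genome build was not given in the sources used here. From the values, the deposited signal is reads that the authors divided by a factor for each library, set within a class and tissue. Dividing each column by its smallest value above 0 gave whole reads for 100% of values within 0.001 reads, in all 4 classes.

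Reads were divided by median-of-ratios factors computed within a class over the 8 control libraries. limma 3.58.1 (R 4.3.3, lmFit and eBayes with a variance trend) was run on log2(scaled reads + 1), with tissue and, as a block, the ewe, for features with a mean of at least 5; p was Benjamini-Hochberg adjusted within the class, with a threshold of 0.05. edgeR 4.0.16 and DESeq2 1.42.0 were run on the recovered reads as alternatives. The limma fit was repeated with other factors, pseudocounts and filters, without the block, with library series as a term, and with each ewe or library left out. Fits with a single library left out had no ewe block. Class shares were tested by exact permutation within ewes (16 swaps). Intervals of read ratios are 95% exact and cover counting error only, since no molecular identifiers are named in the labels. The scripts were tested on simulated data.

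Pairing comes from the sheep numbers in the labels, which put both tissues in 1 animal; the correlation of their deviations from the tissue means ran from -0.313 to 0.283 over the ewes and 4 classes.

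The comparison, its members and the gene lists were chosen with earlier results of these data known. Named features were the 10 miRNAs, or 5 of another class, with the largest change in each direction among those called with the same sign in all 4 ewes, the 5 most abundant per class and tissue, and measured members of the lists. Copies whose reads agree within 10% are named once. The fit over 16 libraries with library series, the class total without dominant features and the fits without single libraries were added after the data were seen.

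Neighbouring and enclosing genes come from a RefSeq gene table of assembly ARS-UI_Ramb_v3.0. Features were matched to it by symbol or gene number, for 105 of 105 miRNAs, 621 of 694 snoRNAs, 1010 of 1148 snRNAs and 1404 of 2973 lncRNAs. Genes inside, around or next to a feature were found from the start and end coordinates of that table, without regard to strand. Sequences were not used here, and no column of per-sample values was left unmapped.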

Additional observations from a re-analysis of the deposited data

Results flagged for a closer look

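In groups of 4 libraries, a sample was picked out where its gap to the nearest other value took up nearly the whole range of the group (Dixon's critical value at 95%). Of 139 groups examined 19 were picked out, where chance gives about 1 in 20, and 7 of the 19 were the liver of ewe 98.

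The liver of ewe 98 was low for the snoRNAs LOC114110194 (16.9 scaled reads) and LOC114117421 (109.8) and for the lncRNA LOC105608013 (3055), and high for the lncRNA LOC114112617 (2130), MIR181A-2 (3342), MIR30B (196) and the snRNA share of reads (0.517%).

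Muscle of ewe 132 was high for the snRNAs LOC114111405 (56.7), LOC114111409 (56), LOC114117060 (106) and LOC114117093 (97.2), for the snoRNA LOC114110519 (11.6) and for the lncRNA LOC114110055 (0.947, a single read). Muscle of ewe 98 was high for the snRNA LOC114109164 (69.1) and the lncRNA LOC114114530 (1.94), and low for MIRLET7G (22645). Muscle of ewe 201 was high for the lncRNA LOC105604459 (315988) and the snoRNA LOC114115071 (64.2), and muscle of ewe 131 was low for MIR30D (11573).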

How the results depend on the processing

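The comparison rests on 4 ewes, on library series that nearly follow the tissues, and, for snRNAs, on 426 to 1750 reads per library, at which differences of a few reads were not detectable. Calls of the unaltered analysis were 58 miRNAs, 52 snoRNAs, 9 snRNAs and 76 lncRNAs. Counts of calls that moved by over 1.5 times were as follows. Library series as a term in the 8 control libraries gave 36 miRNAs, 6 snoRNAs, 0 snRNAs and 18 lncRNAs (2 snRNAs at an unadjusted p under 0.05). Library series 1 alone, where the liver of ewe 98 is the 1 liver and is assumed to vary like the muscles, gave 14 snoRNAs and 33 lncRNAs, and the 16-library fit with the term, added after seeing the data, gave 28 snoRNAs, 0 snRNAs (1 at an unadjusted p under 0.05) and 49 lncRNAs. TMM factors gave 17 snRNAs, the total of the 4 classes 139 snoRNAs, and the deposited values 95 snoRNAs and 19 snRNAs. No filter on low values, and no variance trend, each gave 0 snRNAs by limma, with 25 and 11 at an unadjusted p under 0.05, while edgeR and DESeq2 each called 8. A minimum mean of 20 left 38 lncRNAs. Leaving out 1 ewe, or 1 library with the ewes not paired, gave 41 to 62 miRNAs, 21 to 78 snoRNAs, 0 to 18 snRNAs and 43 to 90 lncRNAs. For snoRNAs the count was 21 without ewe 201, 30 without its liver or its muscle, 31 without the liver of ewe 131, 33 without the muscle of ewe 98, 34 without the liver of ewe 132, and 78 without ewe 98 or its liver alone. For snRNAs it was 0 without ewe 98 or ewe 201 (7 and 11 at an unadjusted p under 0.05), 18 without the liver of ewe 131 and 14 without its muscle. For lncRNAs it was 43, 44 and 50 without ewes 131, 132 and 201. Without the replicate block, that is, with the ewes not paired, the counts were 58 miRNAs, 52 snoRNAs, 8 snRNAs and 79 lncRNAs, and the exact test over 70 assignments gave p = 0.0286, the smallest it can give, for the differences in share of 31.5 percentage points for miRNAs, 2.25 for snoRNAs and -33.8 for lncRNAs. Without LOC105604459 and LOC105603743 the differences in share turned to -8.17 percentage points for miRNAs, -0.00577 for snRNAs and 6.2 for lncRNAs. Single log2 fold changes that turned in sign were these. Scaled to the class total, the value became 2.17 for LOC105611269, 0.91 for LOC106991099, 0.11 for MIR106B, 0.66 for MIR10A, 0.38 for MIR125B, 0.99 for MIR16B, 0.47 for MIR23A and 0.40 for MIR23B. In the same setting it became 1.08 for MIR26A, 0.56 for MIR29B-1, 1.07 for MIR99A, 0.68 for MIRLET7A, 0.65 for MIRLET7C, 0.0701 for MIRLET7D, 0.60 for MIRLET7G and 0.98 for MIRLET7I. Scaled to the total of the 4 classes, it became 0.51 for LOC105611269, 0.81 for MIR106B, 1.36 for MIR10A, 1.08 for MIR125B, 1.69 for MIR16B, 0.46 for MIR181A-1, 0.44 for MIR181A-2 and 1.17 for MIR23A. In the same setting it became 1.11 for MIR23B, 1.78 for MIR26A, 1.24 for MIR29B-1, 0.70 for MIR30B, 0.60 for MIR30C, 0.59 for MIR30D, 1.77 for MIR99A and 1.39 for MIRLET7A. In the same setting it became 0.46 for MIRLET7B, 1.35 for MIRLET7C, 0.77 for MIRLET7D, 1.31 for MIRLET7G and 1.69 for MIRLET7I. In the deposited values it became 0.55 for MIR10A, 0.27 for MIR125B, 0.88 for MIR16B, 0.36 for MIR23A, 0.30 for MIR23B, 0.97 for MIR26A, 0.46 for MIR29B-1 and 0.96 for MIR99A. In the same setting it became 0.58 for MIRLET7A, 0.54 for MIRLET7C, 0.50 for MIRLET7G and 0.87 for MIRLET7I. MIR29B-2 had the values of MIR29B-1. On the class total without MIR133, added after seeing the data, MIR26A became 0.00302. With library series as a term over 16 libraries the value became -0.0218 for LOC114110194, -0.0819 for LOC114110519 and -0.0635 for LOC114116957. Within library series 1 LOC114110519 became -0.11, and with the term in the control libraries MIR136 became -0.54. In the other settings (pseudocounts 0.5 and 5, filters, no variance trend, TMM, edgeR, DESeq2, no pairing, and each ewe or library left out) no named feature that was called turned in sign. For the results listed above, the cause was not tested.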
